A study of Stropharia rugosoannulata with 3 samples.

Results

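Manganese peroxidase (MnP) genes of *Stropharia rugosoannulata*, the wine-cap mushroom, lie partly in an array on contig 8 and partly on contig 11. The other 6 of the 17 named MnP genes lie elsewhere. These 6 genes were taken by their identifiers as all MnP genes outside the contig 8 array, which holds 6, and contig 11, which holds 5. They are SRUG_03862, SRUG_03871 and SRUG_03872 on contig 4, SRUG_04745 on contig 5, SRUG_08480 on contig 9 and SRUG_10902 on contig 15, out of 11750 gene models. The rule itself used no measured value, but it was set with earlier results of these data known. The expression tables carry no annotation, so the assignment to MnP rests on the identifiers given for the series.

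RNA was sequenced from mycelium kept on potato dextrose agar (PDA) at 25 °C, with no treatment and no control, in 3 libraries that are replicates of this single condition. The titles name S68, a monokaryon, which is a line whose cells carry 1 kind of nucleus, and the strain label names the cultivar Heinong No.1. Nothing in the labels says that the libraries came from separate cultures, so every SD and p-value measures the spread between these samples only, which may be technical. The totals ranged between 29678333 and 31831513 counts per library. Of the counts between 1 and 10, 67.7% were even. Counting 2 per fragment throughout would give even counts only, so it can hold for a part of the counts at most. It was taken as an assumption for the counting intervals, and a floor of 3 fragments was taken as 6 counts per library.

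MnPs are secreted heme enzymes of the class II peroxidases. They use hydrogen peroxide to oxidise Mn(II) to Mn(III), which leaves the enzyme as a chelate with organic acids and oxidises phenolic parts of lignin at a distance. In the white-rot fungus *Phanerochaete chrysosporium*, MnP transcripts depend on manganese and on nutrient limitation, and PDA is a sugar-rich medium without lignin.

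Of the 6 genes, 4 were transcribed at a mean of at least 1 FPKM (fragments per kilobase of transcript, scaled to library size, a level that is adjusted for length), and the adjacent genes SRUG_03872 and SRUG_03871 were the highest. SRUG_10902 was lower and steady. SRUG_08480 was high in library 2 alone. SRUG_03862 and SRUG_04745 were at or near 0. Over all gene models, 83.3% reached a mean of at least 1 FPKM, and the median of the mean FPKM was 7.55 over the 6 genes and 23.9 over all models. In every single library, at least 1 FPKM was reached by 3 of the 6 genes and by 80.9% of all models. In bulk mycelium, fewer hyphae that use a gene and less RNA per hypha cannot be told apart.

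SRUG_03872, on contig 4 with 53 models before it and 861 after it, had 32.8, 12.3 and 41.8 FPKM in libraries 1, 2 and 3, from 1239, 445 and 1472 counts. Library 2 was the low one, below both others by more than the counting error, since the exact 95% Poisson interval, taken on fragments of 2 counts and covering counting error only, was 10.7 to 14.1 FPKM in library 2 and started at 30.3 FPKM in library 1. The mean was 29.0 ± 15.1 FPKM (SD, n = 3), at the 55.2 percentile of all gene models.

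SRUG_03871, the model directly before it, had 21.7, 15.6 and 18.2 FPKM, from 883, 608 and 693 counts. Its libraries lay closer together, with library 2 again the lowest. The counting intervals of library 1, 19.7 to 23.8 FPKM, and library 2, 13.9 to 17.5 FPKM, did not overlap. The mean was 18.5 ± 3.03 FPKM (SD, n = 3), at the 43.8 percentile.

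SRUG_10902, on contig 15 with 70 models before it and 163 after it, had 11.6, 10.5 and 9.18 FPKM, from 252, 218 and 186 counts. The counting intervals of its 3 libraries overlapped. The mean was 10.4 ± 1.22 FPKM (SD, n = 3), at the 33.4 percentile, and its coefficient of variation (CV, the SD as a percent of the mean) of 11.7% was the smallest of the 4 genes with a mean of at least 1 FPKM. Its counts per FPKM, which follow the length the authors used, were 0.471 of the median gene model's. Those of the other 5 genes lay between 0.801 and 0.943, so the model of SRUG_10902 was the shortest of the 6. For SRUG_03862 and SRUG_04745 this value is rough, since it rests on at most 6 counts per library.

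SRUG_08480, on contig 9 with 557 models before it and 36 after it, had 0.594, 11.5 and 1.84 FPKM, from 22, 406 and 63 counts. Library 2 stood above the other libraries, and the counting intervals, 0.296 to 1.06, 10.01 to 13.3 and 1.23 to 2.63 FPKM, did not overlap. The mean of 4.66 ± 5.998 FPKM (SD, n = 3) was therefore set by library 2: without that library it was 1.22 FPKM, and the median was 1.84 FPKM.

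SRUG_03862, on contig 4 with 43 models before it, had 0.159, 0.139 and 0.0586 FPKM, from 6, 5 and 3 counts. No library rose above the floor of 6 counts, and the upper limits of the 95% counting intervals were 0.466, 0.487 and 0.282 FPKM. SRUG_04745, on contig 5 with 1016 models, had 4 counts (0.0969 FPKM) in library 1 and 0 in libraries 2 and 3. Without library 1 its mean was 0, and at the floor of 3 fragments 0 counts allow up to 6 counts in a library. Transcripts of both genes were thus not detectable beyond the floor at this depth, which does not show that they are absent.

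**Figure D1:**
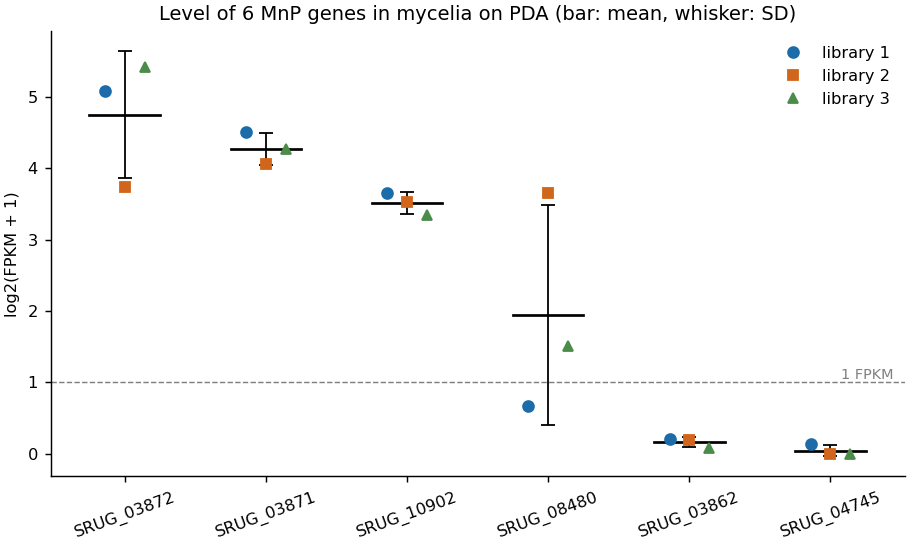
FPKM of the 6 MnP genes in the 3 mycelium libraries, on the axis log2(FPKM + 1), with 1 point per library, a bar at the mean of the log2 values, whiskers for their SD and a dashed line at 1 FPKM. SRUG_03872 and SRUG_03871 lie highest, SRUG_10902 sits between 9.18 and 11.6 FPKM, SRUG_08480 spans 0.594 to 11.5 FPKM with library 2 on top, and SRUG_03862 and SRUG_04745 stay below 1 FPKM.

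Neighbours in the order of mean FPKM were compared within the libraries on the scale log2(FPKM + 1). An exact two-sided sign-flip permutation test over the 3 libraries was used, whose smallest possible p is 0.25, so that no comparison could pass 0.05. The order was taken from these same values, which favours a positive mean difference in each comparison. SRUG_03872 exceeded SRUG_03871 by 0.47 ± 0.74 (SD, n = 3), higher in 2 of 3 libraries (exact p = 0.5, 0.5 after Benjamini-Hochberg adjustment over 5 comparisons), and this difference was smaller than its spread. SRUG_03871 exceeded SRUG_10902 by 0.76 ± 0.21 in 3 of 3 libraries (exact p = 0.25, adjusted 0.417). SRUG_10902 exceeded SRUG_08480 by 1.57 ± 1.57, with the order turned in library 2 (exact p = 0.5, adjusted 0.5). SRUG_08480 exceeded SRUG_03862 by 1.78 ± 1.53 in 3 of 3 libraries (exact p = 0.25, adjusted 0.417). SRUG_03862 and SRUG_04745 were both at or under the floor and were not separated.

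The adjacent pair carried most of the MnP transcript of these 6 genes. Its summed level was 54.5, 28.0 and 60.0 FPKM in libraries 1, 2 and 3, against 12.5, 22.2 and 11.1 FPKM for the other 4 genes, and the pair was above the single genes in each library. The pair held 81.4%, 55.7% and 84.4% of the FPKM of the 6 genes, a mean of 73.8% ± 15.8 (SD, n = 3). Library 2 gave the lowest share, where SRUG_08480 was high and SRUG_03872 low. On the scale log2(FPKM + 1), the mean of the pair minus that of the 4 others was 3.62, 2.06 and 3.61, a mean of 3.09 ± 0.90 (SD, n = 3), higher in 3 of 3 libraries (exact permutation p = 0.25, the smallest possible). Against only the single genes with a mean of at least 1 FPKM, SRUG_10902 and SRUG_08480, the difference was 1.78.

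Within the pair neither gene was always the higher one. The FPKM ratio of SRUG_03872 to SRUG_03871 was 1.52, 0.790 and 2.30 in libraries 1, 2 and 3, and the ratio of counts was 1.40, 0.732 and 2.12. SRUG_03872 held 60.2%, 44.1% and 69.7% of the pair's FPKM. Its log2(FPKM + 1) difference from SRUG_03871 was 0.87 without library 2 and 0.13 without library 3. The sources used here do not say how reads that match both copies were counted, and whether such reads moved these ratios was not tested.

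**Figure D2:**
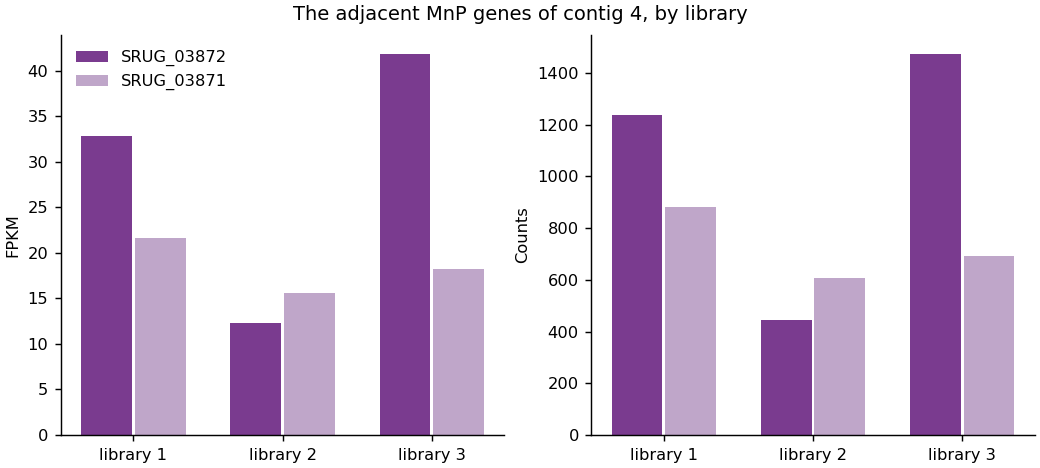
Levels of the adjacent MnP genes SRUG_03872 and SRUG_03871 in the 3 libraries, as FPKM in the left panel and as counts in the right panel, 1 bar per gene and library. SRUG_03872 is above SRUG_03871 in libraries 1 and 3 and below it in library 2.

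The genes differed in how far the libraries lay apart. Spread was measured where the mean count reached 100, in 4 genes, by TMM-normalized CPM (counts scaled to library size, where TMM, the trimmed mean of M values, sets the libraries' scaling). The highest library was at least 2 times the lowest for 2 of the 4, SRUG_08480 and SRUG_03872, against 17.1% of the 9222 gene models measured in the same way. Both of these genes had library 2 at an extreme, in opposite directions. Of all measured models, 37.7% were highest and 37.8% lowest in library 2, so an extreme there was common. Without library 2, 0 of 3 genes passed, against 4.75% of all models measured, since SRUG_03872 no longer did and SRUG_08480 then had a mean count under 100 and was not measured.

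SRUG_08480 had 0.739, 12.8 and 2.07 CPM in libraries 1, 2 and 3, a ratio of highest to lowest of 17.3 and a CV of 127%, at the 99.7 percentile of the CVs of all measured models. Its ratio in counts to SRUG_10902 was 0.0873, 1.86 and 0.339. SRUG_03872 had 41.6, 14.02 and 48.3 CPM, a ratio of 3.44 and a CV of 52.4%, at the 93.6 percentile. Both thus varied more than most genes, with a median CV of 18.7% over all measured models.

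SRUG_03871 and SRUG_10902 varied about as much as the typical model. SRUG_03871 had 29.7, 19.2 and 22.7 CPM, a ratio of 1.55 and a CV at the 59.7 percentile. SRUG_10902 had 8.46, 6.87 and 6.10 CPM, a ratio of 1.39 and a CV at the 44.7 percentile. The lowest library was library 2 for SRUG_03872 and SRUG_03871, 2 of 4 genes, against 37.8% of all measured models, which is near the share of the background.

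The biological coefficient of variation is the spread beyond the Poisson error of the counts, which edgeR estimates with sharing between genes. Counts were entered as they are, so with 2 counts per fragment some counting error would remain in it. It was 0.802 for SRUG_08480, against 0.413 on the trend of genes of its level, and 0.408 for SRUG_03872, against 0.272 on the trend. It was 0.276 for SRUG_03871, against 0.300, and 0.337 for SRUG_10902, against 0.394. Without library 2, the estimates for SRUG_08480 and SRUG_03872 were 0.387 and 0.191. Whether library 2 differed from the others in its culture or its handling was not tested.

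**Figure D3:**
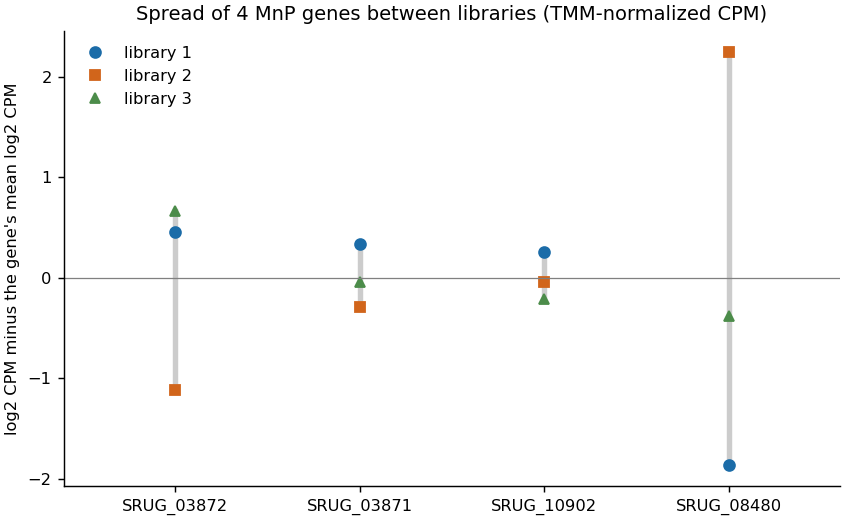
TMM-normalized CPM of the 4 MnP genes measured for spread, as log2 CPM minus the gene's mean log2 CPM, 1 point per library, with a grey bar from the lowest to the highest library. SRUG_08480 has library 2 far above and SRUG_03872 has it below the other libraries, while SRUG_03871 and SRUG_10902 span ratios of 1.55 and 1.39.

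Gene models with a like profile over the libraries were sought by the root mean square (RMS) distance of centred log2 CPM over 3 libraries, which with so few libraries is a description only. The models nearest to SRUG_03872 were SRUG_07107 on contig 8 and SRUG_06676 on contig 7, at 0.0279 and 0.0556, and only 9 of 9221 models lay within 0.1. For SRUG_08480 none lay within 0.1, and the nearest, SRUG_08662 on contig 10 and SRUG_01344 on contig 2, were at 0.111 and 0.126. The flatter profiles were common. Within 0.1 of SRUG_03871 lay 617 models, led by SRUG_04380 and SRUG_08575 at 0.0056 and 0.0068. Within 0.1 of SRUG_10902 lay 579, led by SRUG_01088 and SRUG_05507 at 0.0049 and 0.0051. The adjacent genes were not each other's nearest model, at a distance of 0.633. None of the 4 genes had another of them within 0.1, and the MnP gene nearest to SRUG_10902 was SRUG_07851 of the contig 8 array, at 0.0951.

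Within the family, the 6 genes summed to 66.9, 50.2 and 71.1 FPKM in libraries 1, 2 and 3, which was 33.6%, 26.3% and 31.7% of the FPKM of all 17 MnP genes (mean 30.5% ± 3.77, SD, n = 3). The contig 8 array summed to 132, 138 and 153 FPKM and the contig 11 genes to 0.330, 2.01 and 0.205 FPKM. On the scale log2(summed FPKM + 1), which understates differences from low sums, the 6 genes minus the array was -1.17 ± 0.25 (SD, n = 3), higher in 0 of 3 libraries, and the 6 genes minus contig 11 was 5.22 ± 0.99, higher in 3 of 3 libraries (exact permutation p = 0.25 for each, the smallest possible). In the order of mean FPKM of all 17, SRUG_03872 came second behind SRUG_07850 of the array (56.9 FPKM), SRUG_03871 sixth, SRUG_10902 seventh, SRUG_08480 ninth, SRUG_03862 13th and SRUG_04745 15th. In library 2 SRUG_03872 was only sixth.

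**Figure D4:**
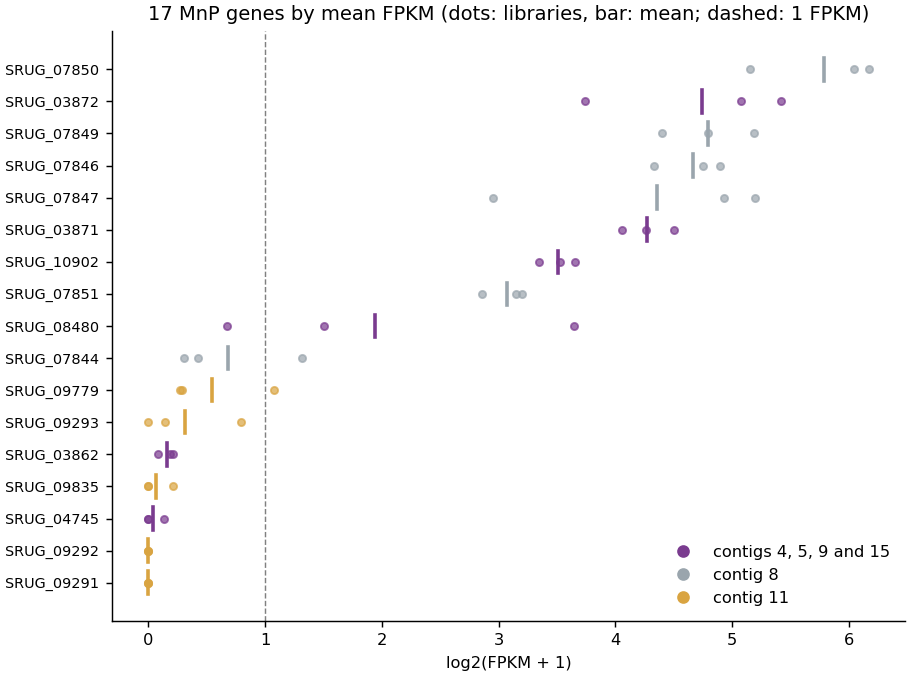
Levels of the 17 MnP genes in 3 libraries as log2(FPKM + 1), 1 dot per library and a bar at their mean, with genes in the order of mean FPKM, the 6 genes on contigs 4, 5, 9 and 15 in purple, the contig 8 array in grey, contig 11 in yellow and a dashed line at 1 FPKM. They are spread over the whole order, from second place (29.0 FPKM) to 15th (0.0323 FPKM).

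The gene models on either side of these genes were read as background, 5 listed before and 5 after on the same contig with other MnP genes left out. Near SRUG_03862, 6 of 10 models had no count in any library and only SRUG_03861, the model directly before it, reached 1 FPKM, at a mean of 37.9 FPKM. The next model after it, SRUG_03863, had 4, 40 and 14 counts. SRUG_03862 and the pair are parted by 8 models, of which 3 (SRUG_03864, SRUG_03865 and SRUG_03866) had no count and 2 reached 1 FPKM, with a highest mean of 3.62 FPKM in SRUG_03869. Over contig 4 as a whole, 84.7% of the 915 models reached 1 FPKM.

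The pair stood at the end of this little transcribed stretch. Before it, SRUG_03870 had a mean of 1.02 FPKM from 10, 34 and 18 counts. After it, SRUG_03873 had 29.3, 30.2 and 30.5 FPKM, a level like that of the pair but with little spread between libraries, followed by SRUG_03874 at 98.8 FPKM. The 5 models after SRUG_03872 had a median of 30.04 FPKM and the 5 before SRUG_03871 one of 0.340 FPKM. Windows centred on SRUG_03871 and on SRUG_03872 each held 9 models, and each had a median of 3.62 FPKM. For either window it was 2.03 FPKM with 10 models on each side and 2.25 FPKM without library 2.

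The 3 genes on other contigs lay in unlike surroundings. Around SRUG_08480, 10 of 10 models were at 1 FPKM or more, with a median of 15.1 FPKM and 9 of 10 above it. Its neighbours SRUG_08479 and SRUG_08481 were at 52.9 and 103 FPKM, and the lowest of the 10, SRUG_08478, was at 4.42 FPKM. Contig 9 as a whole had 75.3% of its models at 1 FPKM or more, against 83.3% of all models. In the wider window of 10 models after SRUG_08480, 7 reached 1 FPKM and 2 had no count. SRUG_10902 had 5 of 10 models at 1 FPKM or more and 4 without a count, SRUG_10897 to SRUG_10900, while SRUG_10901 and SRUG_10903 beside it were at 32.5 and 69.3 FPKM. Contig 15 as a whole had 62.8% of its models at 1 FPKM or more and a median of 5.71 FPKM.

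SRUG_04745 lay near the start of the model list of contig 5, with 11 models before it. The model before it, SRUG_04744, was at 63.7 FPKM and the one after it, SRUG_04746, at 0.0127 FPKM. Of its 10 neighbours 5 reached 1 FPKM, with the highest, SRUG_04750, at 223 FPKM, and 2 had no count. Of the 10 models before it 7 had no count, and of the 10 after it 0. Contig 5 as a whole had 92.7% of its 1016 models at 1 FPKM or more and 46 without a count.

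**Figure D5:**
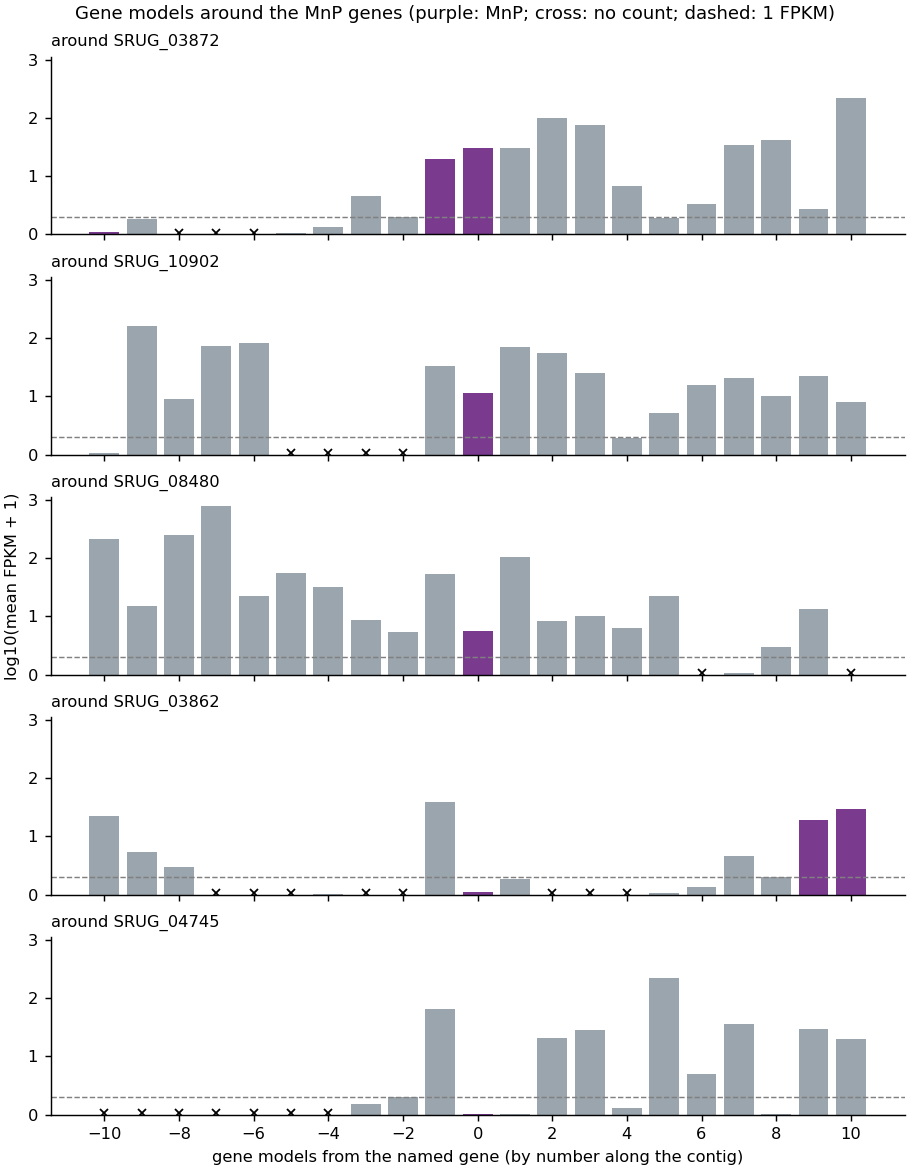
Mean level over 3 libraries of the gene models up to 10 before and 10 after a named MnP gene, as log10(mean FPKM + 1) against the distance in models, with MnP genes in purple, crosses for models without a count and a dashed line at 1 FPKM. With 5 models on each side, 10 of 10 reach 1 FPKM around SRUG_08480, and 6 of 10 have no count around SRUG_03862. Of the 10 models after SRUG_08480, 2 have no count. The 5 models after the pair have a higher median (30.04 FPKM) than the 5 before it (0.340 FPKM).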

How the data were processed

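RNA-seq of mycelium was deposited as 4 tables over 11750 gene models on 21 contigs. The authors' counts are whole numbers per gene and per transcript without normalization, and both tables agree in every cell, as do both tables of FPKM that the authors computed. The submitters' processing notes name fastp, HISAT2 and StringTie. Which counter was run, whether it used strand, how it treated multi-mapped reads and which FPKM total it took is not stated in the labels or the methods read here. The labels and the study's transcriptome methods both give PDA and Heinong No.1, and only the sample titles give S68.

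Contig and model number were read from the gene names. No genome, annotation or sequence was used. Counts were scaled with TMM in edgeR 4.0.16 (R 4.3.3), with DESeq2 1.42.0 size factors as an alternative, and edgeR gave the biological coefficient of variation in an intercept-only fit over 9856 genes. Other values were computed with SciPy 1.17.1, NumPy 2.4.6 and pandas 2.3.3 under Python 3.11.15. Plots used matplotlib 3.10.9. The scripts were tested on simulated data. Alternatives were other units, thresholds, pseudocounts and windows, and each library left out in turn. With 1 condition, no differential test was made. The genes named are the 6 genes, other MnP genes where the order needs them, the models next to a member or between SRUG_03862 and SRUG_03871, the highest and lowest of 5 on each side, and the 2 models with the most alike profile. The genes and lists were chosen with earlier results of these data known.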

Additional observations from a re-analysis of the deposited data

How the results depend on the processing

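Of 121 alternative values for 21 results, 110 stayed within the spread or limit set for the result, 11 moved and 0 reversed. Some of the 110 still changed much. The mean of SRUG_08480 fell from 4.66 to 1.22 FPKM without library 2. The pair minus the single genes went from 3.09 to 4.57 with a pseudocount of 0.1. It was 1.78 against only the single genes with a mean of at least 1 FPKM. The 11 that moved included the level of SRUG_10902 as TPM, which was 12.0 against 10.4 as FPKM, a different unit. Leaving out each library in turn gave between 0 and 2 genes past the 2-fold limit, with 0 without library 2. In the same leave-one-out fits the biological coefficient of variation lay between 0.191 and 0.420 for SRUG_03872, and between 0.387 and 0.693 for SRUG_08480. The share of all measured models past the 2-fold limit was 8.67% without library 1, 4.75% without library 2 and 12.8% without library 3. The medians of the models around a gene depended on the window. With 5 models on each side they were 0 FPKM for SRUG_03862, 0.780 FPKM for SRUG_04745 and 2.49 FPKM for SRUG_10902. With 3 models on each side they were 30.04 FPKM for SRUG_03872, 10.3 FPKM for SRUG_04745, 8.48 FPKM for SRUG_08480 and 28.4 FPKM for SRUG_10902. With 10 models on each side they were 0.0520 FPKM for SRUG_03862, 0.403 FPKM for SRUG_04745 and 11.8 FPKM for SRUG_10902. Depth limits SRUG_03862 and SRUG_04745, whose libraries held at most 6 counts, and the 3 libraries allow no p below 0.25 in an exact permutation test.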

Other observations

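The model SRUG_08483, the third after SRUG_08480, had 426, 119 and 899 counts in libraries 1, 2 and 3, so that library 2 was its lowest, whereas it was the highest for SRUG_08480. It was chosen after its values were seen. The 2 models directly before the pair on contig 4 had more counts in library 2 than in the others, while SRUG_03872 had its lowest count there. SRUG_03869 had 29, 85 and 66 counts and SRUG_03870 had 10, 34 and 18, so both lay under the mean count of 100 set for spread. Of all models measured for spread, 37.7% were highest in library 2 and 37.8% lowest. This pattern, too, was picked after the values were seen. Causes of these patterns were not tested.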
